A study of Mus musculus with 10 samples.

Results

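Cxcl12 and Cxcl13 are homeostatic chemokines, made by resident cells to hold leukocytes in place or to guide them through tissue. The 5 genes described here are these 2 ligands with Cxcr4 and Ackr3, the receptors of CXCL12, and Cxcr5, the receptor of CXCL13. They were picked by symbol from the 28185 genes measured. The ligands were chosen from values in these libraries: Cxcl12 from its difference between MI + MSC and MI and between MI and Blood, and Cxcl13 from its difference between Blood + MSC and Blood. Those differences are therefore given as descriptions without a test. The receptors were taken as the genes that bind these ligands.

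The study asked how mesenchymal stromal cells (MSC) act on neutrophils after myocardial infarction (MI), and measured RNA in cells enriched with Ly6G beads 3 days after the left coronary artery was tied off. All mice were male C57Bl/6J of 12 to 16 weeks with this ligation, those that gave blood included. The MI libraries (13, 19 and 20) and the MI + MSC libraries (15, 17 and 18) came from the digested infarcted left ventricle, and the Blood (21 and 22) and Blood + MSC (23 and 24) libraries from blood drawn by cardiac puncture. MSC mice had received syngeneic bone marrow MSC under the skin at 3 sites, 1000000 cells per site, soon after the ligation, and the other mice had received none. No library of mice without infarction was analysed here. The labels do not state that each library is a separate mouse, so p-values measure the spread between libraries.

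CXCL12 is made by endothelial cells, pericytes and fibroblasts and by the stroma of the bone marrow. There, CXCL12 acting on CXCR4 retains neutrophils, and CXCR2 drives their release into blood. CXCR4 returns to the surface of aged neutrophils, while ACKR3 does not couple to G proteins and takes up CXCL12 for degradation. CXCL13 is made by follicular stromal cells and by some macrophages, and attracts B cells through CXCR5. All libraries are bulk RNA, so fewer cells of a type and less RNA per cell cannot be told apart.

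The libraries held between 148594 (MI 13) and 8602711 (Blood + MSC 24) reads on genes. A normalized count is a gene's reads divided by the size factor of the library. A single read of MI 13 is worth 8.40 such counts and a single read of Blood 21 is worth 7.07, while the remaining 8 libraries range from 0.168 to 2.30. Ly6g, the gene of the protein used for the enrichment, ranged from 4.75 to 26.9 normalized counts over the 6 heart libraries. The Blood libraries had 198 and 645 and the Blood + MSC libraries 57.0 and 41.2. The sum of 12 neutrophil markers was 2723 to 16262 in heart and 17074 to 50326 in blood libraries, and the sum of 9 heart muscle markers was 3228 to 24717 in heart libraries, so the heart libraries held RNA of other cells. Blood 21 stood apart by its platelet markers, which summed to 27378 normalized counts against 602 to 1147 in the other 3 blood libraries.

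The sequences just before the transcription starts of both ligands and of Cxcr4 are shown because the results turn on these 3 genes. They are RefSeq sequences (table of build GRCm38.p6), shown without bases that GENCODE places in an exon of the gene. Each matched the gene's own GRCm39 chromosome once on the gene's strand, and other chromosomes were not searched. Capitals mark the letters of the GC box and of the TATA box on either strand, as spelled out after the sequences.

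Cxcl12, chr6:117145246-117145495, plus strand: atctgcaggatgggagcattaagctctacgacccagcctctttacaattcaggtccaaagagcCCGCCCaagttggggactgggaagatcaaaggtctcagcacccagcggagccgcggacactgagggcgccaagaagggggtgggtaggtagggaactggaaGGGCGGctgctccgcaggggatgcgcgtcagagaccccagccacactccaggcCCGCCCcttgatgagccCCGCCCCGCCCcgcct

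Cxcl13, chr5:96104548-96104797, plus strand: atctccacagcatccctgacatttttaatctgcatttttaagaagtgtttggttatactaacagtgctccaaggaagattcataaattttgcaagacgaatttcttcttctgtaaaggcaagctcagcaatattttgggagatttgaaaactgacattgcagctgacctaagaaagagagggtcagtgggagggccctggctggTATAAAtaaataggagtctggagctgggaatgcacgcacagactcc

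Cxcr4, chr1:128520045-128520286, minus strand: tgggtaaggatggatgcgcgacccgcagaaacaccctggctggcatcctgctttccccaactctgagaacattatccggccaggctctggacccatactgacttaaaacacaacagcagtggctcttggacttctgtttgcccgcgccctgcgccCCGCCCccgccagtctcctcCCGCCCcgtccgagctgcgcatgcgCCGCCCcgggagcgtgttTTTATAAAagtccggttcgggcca

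The GC box was searched as GGGCGG. It was present 5 times in the Cxcl12 stretch, where the pair starting at -16 and -11 from the transcription start overlap, 3 times in the Cxcr4 stretch and not in that of Cxcl13. The TATA box was searched as TATAAA. It was at -46 in the Cxcl13 stretch and at -30 in that of Cxcr4, where it overlaps its own copy on the other strand, and was not found in that of Cxcl12. The core of the hypoxia response element, searched as ACGTG, was in none of them. Of 32851 entries of that table, 32.7% held the GC box letters in the 250 bases before the start, 12.4% the TATA box letters and 16.6% the hypoxia core. These matches describe letters and not bound sites. The Cxcr5 gene lies on chromosome 9 (44423083 to 44473174, minus strand) and Ackr3 on chromosome 1 (90131689 to 90144473, plus strand). Cxcl12 (chromosome 6, 117144945 to 117158328) has a GENCODE transcript that starts upstream of the stretch shown.

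**Figure D1:**
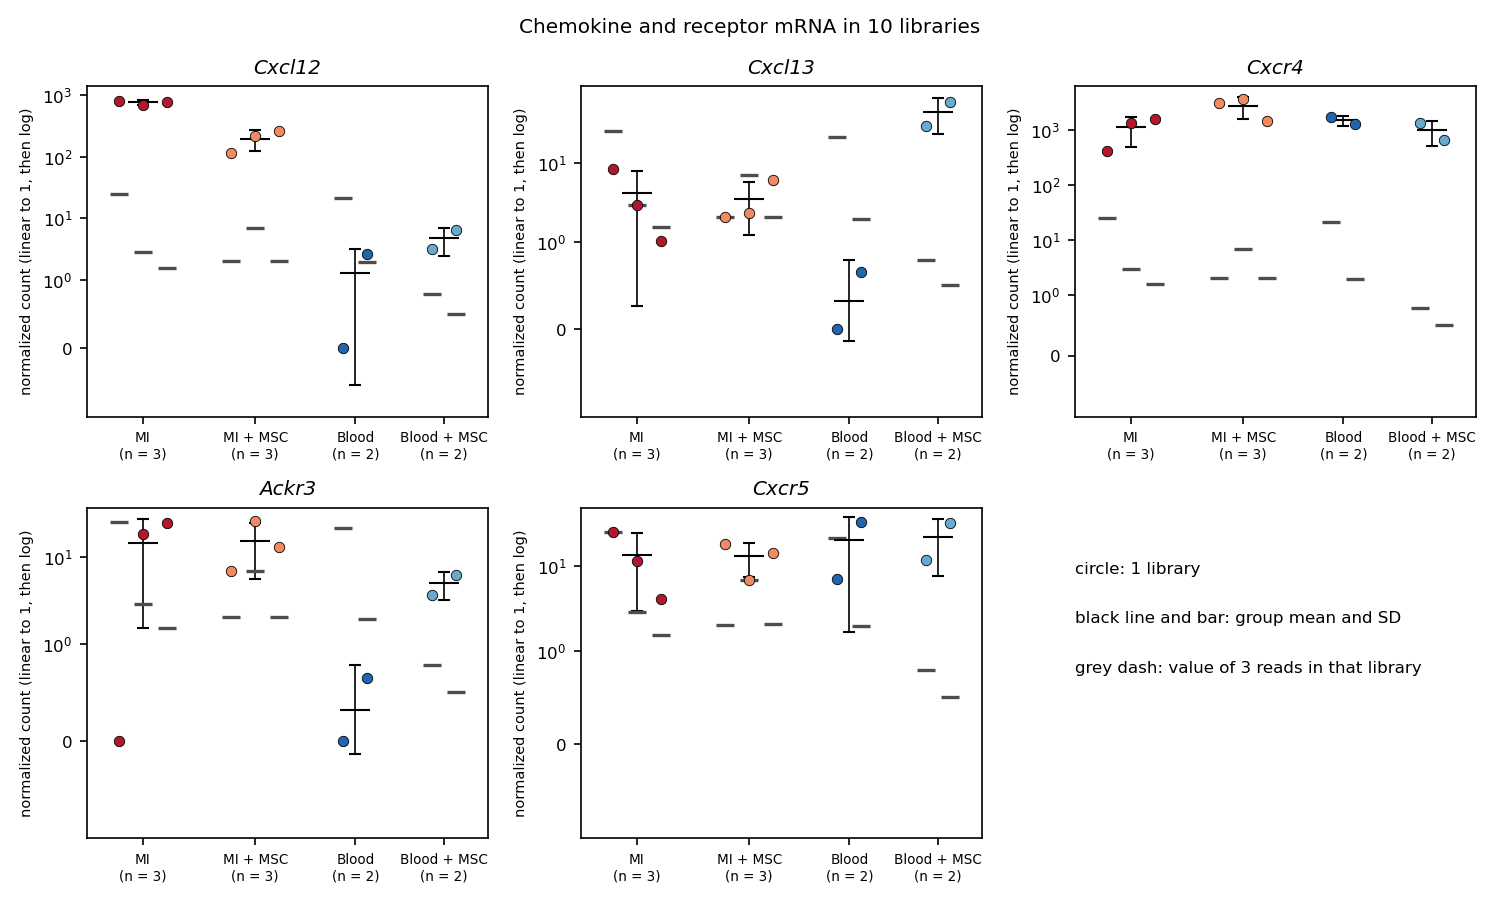
Normalized counts (vertical axis, linear to 1 and logarithmic above) of the 5 genes in each of the 10 libraries by group, with the group mean and SD as a black line and bar, and the value of 3 reads in each library as a grey dash. Cxcl12 is separated between MI, MI + MSC and both blood groups, Cxcl13 stands above the dash in both Blood + MSC libraries, and the 3 receptors overlap between most groups.

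Cxcl12 was a heart transcript in these libraries. The MI libraries had 815, 695 and 777 normalized counts (762 ± 61.4, SD, n = 3) and the MI + MSC libraries 116, 213.5 and 260 (196 ± 73.6, SD, n = 3). The Blood libraries had 0 and 2.60, and those of Blood + MSC 3.15 and 6.39. Every MI library lay above every MI + MSC library, and every heart library lay above every blood library. These values rest on 93 to 1509 reads per heart library and, in the order given, on 0, 4, 12 and 38 reads per blood library.

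The MI mean of Cxcl12 was 3.88 times the MI + MSC mean, and 3.75 times without MI 13 and Blood 21, the 2 shallowest libraries. On the log2(normalized count + 2) scale, MI + MSC against MI was -2.02 (SE 0.39) and MI against Blood was 7.97 (SE 0.44). Since Blood had 0 and 4 reads, the latter depends on the pseudocount and was 8.65 and 6.96 with pseudocounts of 1 and 5, and 7.37 and 8.57 without Blood 21 and without Blood 22. Among all 11549 genes tested, 9.6% had every MI + MSC library under every MI library, and 19.1% had every heart library over every blood library. Cxcl12 was the only one of the 4 tested members in either set, and nothing is read from this, since these differences chose it. The difference between MI + MSC and Blood + MSC did not choose Cxcl12, although its libraries enter those that did. It was 4.84 (SE 0.44), or 41.1 times by the ratio of means, and is given without a test. Cxcl12 passed the minimum mean of 10 normalized counts through the heart libraries alone, and this difference sets those libraries against blood.

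In blood, Cxcl12 was 1.12 higher on the log2 scale in Blood + MSC than in Blood (SE 0.48, limma with Benjamini-Hochberg adjustment over all tested genes, adjusted p = 0.672). The 0 reads of Blood 21 allow up to 21.2 normalized counts, which is above both Blood + MSC values, so a difference was not detectable at this depth.

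The genes whose profile over the 10 libraries was most like that of Cxcl12 were Ptprb, Kdr, Dsp, Epas1 and Sparcl1. The root mean square difference between centred log2 profiles was 0.38, 0.46, 0.51, 0.55 and 0.55, against a median of 3.26 over 11548 genes. Ptprb is an endothelial phosphatase, Kdr the main VEGF receptor of endothelium, Dsp a desmosomal protein of heart muscle and Epas1 the hypoxia factor HIF-2α. From MI to MI + MSC, the mean normalized count went from 486 to 159 for Ptprb, from 315 to 110.3 for Kdr, from 531 to 213 for Dsp and from 453 to 182 for Epas1.

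Endothelial and mural markers were lower together with Cxcl12 in MI + MSC, while fibroblast markers overlapped between the groups. The sum of 12 endothelial markers, all with reads in both heart groups, ran from 2631 to 2941 normalized counts over the MI libraries and from 612 to 1182 over the MI + MSC libraries. The sum of 9 mural cell markers ran from 1052 to 1277 against 299 to 731, again without overlap. The 9 heart muscle markers summed to 8284 to 24717 and 3228 to 12888, with overlap. The sum of 10 fibroblast markers overlapped too, at 1093 to 1542 against 994 to 1750. All 11 tested endothelial genes (median log2 fold change -1.61), all 9 mural genes (-0.88) and all 9 heart muscle genes (-1.38) were lower in MI + MSC than in MI by sign, against a median of -0.01 over all tested genes, and 0 of them passed the test. Their part in the Cxcl12 difference was not tested.

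The gap between the groups was smaller against the endothelial and mural sums. Per 1000 endothelial marker counts, the MI libraries had 282, 264 and 264 counts of Cxcl12 and the MI + MSC libraries 189, 214 and 219.6. Per 1000 mural marker counts they had 638, 621 and 738 against 387, 419 and 355, and per count of Cdh5, the cadherin of endothelial junctions, 1.59, 1.45 and 1.52 against 0.966, 1.35 and 1.12. Per 1000 fibroblast marker counts, the means were 574 ± 154 against 155 ± 57.0 (SD, n = 3 each). The groups did not overlap in any of these 4 ratios. The ratios reuse the values that chose Cxcl12, and how many other genes separate in the same way was not counted. Nothing particular to Cxcl12 is therefore read from them. In blood, Cdh5 had 2.19 to 7.07 normalized counts.

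**Figure D2:**
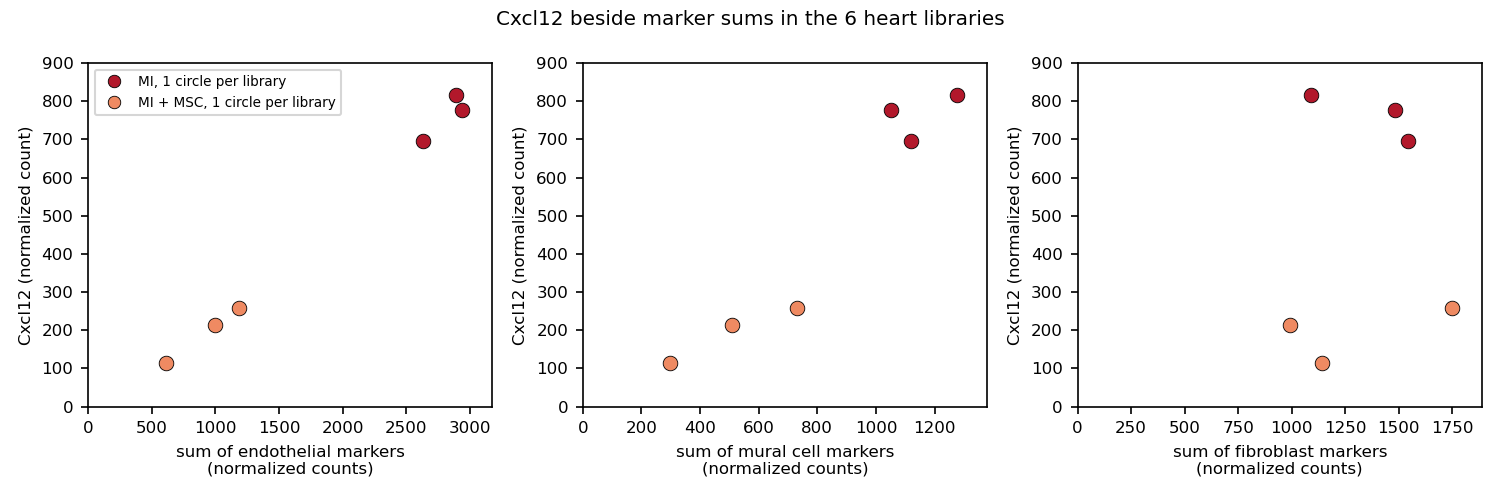
Cxcl12 (vertical axis, normalized counts) against the summed normalized counts of endothelial, mural and fibroblast markers (horizontal axes) in the 3 MI and 3 MI + MSC libraries, 1 circle per library. MI and MI + MSC separate on the endothelial axis (2631 to 2941 against 612 to 1182) and on the mural axis, and overlap on the fibroblast axis.

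Cxcl13 was close to the limit of detection except in blood of MSC mice. The Blood + MSC libraries had 29.2 and 59.4 normalized counts (111 and 353 reads) and the Blood libraries 0 and 0.650 (0 reads and 1 read). The MI libraries had 8.40, 2.88 and 1.03 and the MI + MSC libraries 2.03, 2.30 and 6.10, from 1 to 9 reads each. Both Blood + MSC libraries lay above all others.

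The Blood + MSC mean of 44.3 ± 21.4 (SD, n = 2) was at least 3.83-fold higher than Blood, taking 3 reads in each Blood library as the floor (mean 11.6 normalized counts). The bound is set by the shallow Blood 21, and was at least 22.7-fold against Blood 22 alone. This difference chose the gene, and 21% of all tested genes had every Blood + MSC library over every Blood library, Cxcl12 and Cxcl13 among the 4 tested members. Cxcl13 passed the minimum mean of 10 normalized counts through Blood + MSC alone, with 11.2 over all libraries, just inside it. MI + MSC against Blood + MSC was -3.07 (SE 0.79) on the log2 scale, given without a test because it is set against the group that let the gene pass. Between MI and Blood the difference was 1.22 (SE 0.79, adjusted p = 0.249), and between MI + MSC and MI -0.04 (SE 0.71, adjusted p = 0.987).

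The profiles nearest to Cxcl13 were those of Epha2, Fn1, Cpsf1, Atp5po and Engase, at root mean square differences of 0.97 to 1.06 on the log2 scale against a median of 1.65, so none was as close as the nearest genes of Cxcl12. Fn1, which encodes the matrix protein fibronectin, was at 1116 and 1063 normalized counts in the Blood libraries and at 2714 and 5942 in those of Blood + MSC. The heart libraries ranged from 1099.7 to 2607.

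The macrophages of the serous cavities, a known source of CXCL13, were followed by 12 markers. All 12 had reads in each blood group. They summed to 2621 and 271 normalized counts in the Blood libraries and to 315 and 528 in those of Blood + MSC. F5 and Ltbp1 made up 2402 of the 2621 in the platelet-rich Blood 21. Without these 2 genes, a choice made after the values were seen, the sums were 219 and 99.4 for Blood against 148 and 335 for Blood + MSC, with overlap. Of 8 tested genes of the list, 4 were higher and 4 lower in Blood + MSC than in Blood by sign, and 0 were called. Of single genes of the list, Prg4 was at 21.2 and 4.55 for Blood against 19.2 and 46.9 for Blood + MSC. Gata6 was at 21.2 and 5.20 against 12.3 and 21.4, and Timd4 at 21.2 and 3.90 against 8.93 and 10.6. Vsig4 was at 7.07 and 9.10 against 15 and 31.1. The Blood 21 values of Prg4, Gata6 and Timd4 rest on 3 reads each, which is the floor, and that of Vsig4 on 1 read. Blood 22, with 6 to 14 reads of Prg4, Gata6, Timd4 and Vsig4, lay below both Blood + MSC libraries in each of them. In Alox15, also of the list, Blood 22 lay between the Blood + MSC libraries (16.2 against 8.67 and 36.2), and Blood 21 had 0. The other genes of the list are not given singly, so nothing about the list is read from these genes. The part of such cells in the Cxcl13 difference was not tested.

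Cxcr4 was the member with the most reads per length in every group, at 601, 1496, 810 and 539 normalized counts per kb of exon in MI, MI + MSC, Blood and Blood + MSC. Second place per kb was taken by Cxcl12 in MI and MI + MSC (91.3 and 23.5), by Cxcr5 in Blood (6.03) and by Cxcl13 in Blood + MSC (38.5). The order of Cxcr5 and Cxcl13 below Cxcl12 in the heart (4.09 and 3.57 in MI, 3.94 and 3.02 in MI + MSC) does not exceed their spread.

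Cxcr4 normalized counts were 412, 1307 and 1567 for the MI libraries and 3098, 3634 and 1445 for those of MI + MSC. They were 1696 and 1255 for Blood and 1314 and 651 for Blood + MSC. The highest values were in MI + MSC 15 and 17, but MI + MSC 18 lay within the range of MI, and the blood groups overlapped as well. MI 13, the lowest heart value, rests on 49 reads.

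MI + MSC averaged 2726 ± 1141 and MI 1095 ± 606 (SD, n = 3 each), while Blood averaged 1475 ± 312 and Blood + MSC 982 ± 468 (SD, n = 2 each). MI + MSC against MI was 1.42 on the log2 scale (SE 0.56, 95% interval 0.19 to 2.65), with an unadjusted p of 0.0273 and a limma adjusted p of 0.606. Without MI 13 it was 0.82 (limma adjusted p = 1.0), and over all 20 alternatives the adjusted p ranged from 0.181 to 1.0. Measured from the median change of the tested genes, it was 1.44 with the deposited scaling, 1.44 when scaled by library totals and 1.43 with TMM. Those scalings moved that median from -0.01 to -0.15 and 0.27. Blood + MSC against Blood was -0.66 (SE 0.69, interval -2.16 to 0.85, adjusted p = 0.861), and 0.01 with TMM. The difference between these 2 MSC changes was 2.08 (SE 0.89, limma adjusted p = 0.630).

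Between tissues, Cxcr4 differed by -0.62 (SE 0.63, interval -2.0 to 0.75, adjusted p = 0.459) in MI against Blood and by 1.45 (SE 0.63, interval 0.08 to 2.83, adjusted p = 0.141) in MI + MSC against Blood + MSC. The latter passed the threshold in 3 of 20 alternatives, with DESeq2 (adjusted p = 0.0268), with only these 2 groups fitted (0.0486) and without MI 13 (0.0437).

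Cxcr2, the receptor for release from bone marrow, was at 210.1, 881 and 727 normalized counts in the MI libraries and at 1221, 2002 and 304 in those of MI + MSC. Blood had 4847 and 4862, and Blood + MSC 3353 and 2527. It was lower in MI than in Blood by 3.24 on the log2 scale (-3.24, SE 0.77, limma adjusted p = 0.00913), and lower by 1.68 in MI + MSC than in Blood + MSC (-1.68, SE 0.77, adjusted p = 0.161). The count of Cxcr4 per count of Cxcr2 was 1.96, 1.48 and 2.16 for the MI libraries and 2.54, 1.82 and 4.76 for those of MI + MSC. It was 0.35 and 0.258 for Blood and 0.392 and 0.258 for Blood + MSC, so every heart library lay above every blood library and the MSC groups overlapped with their controls. Per count of Csf3r, the G-CSF receptor of neutrophils, Cxcr4 was 0.742 to 2.06 in heart and 0.113 to 0.298 in blood. By this ratio the MI libraries (0.742, 1.16 and 1.29) and those of MI + MSC (1.48, 1.32 and 2.06) did not overlap, while the blood groups did. Cxcr2 and Csf3r are both among the neutrophil markers, whose sum was lower in every heart than in every blood library, while Cxcr4 itself overlapped between the tissues. How many other genes separate when set over Cxcr2 or Csf3r was not counted, so nothing particular to Cxcr4 is read from these ratios. Macrophages and lymphocytes express Cxcr4 too. The 10 macrophage markers summed to 2336 to 9986 normalized counts in heart and 5890 to 8146 in blood libraries, and their part in these ratios was not tested.

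**Figure D3:**
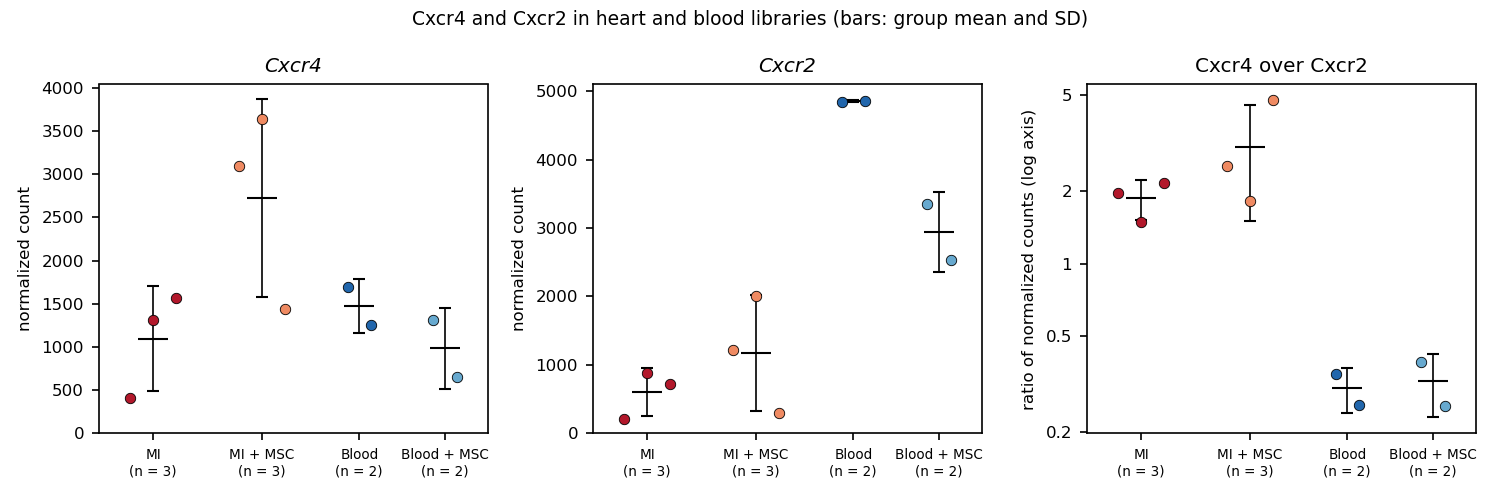
Normalized counts of Cxcr4 and Cxcr2 (linear vertical axes) and the ratio of Cxcr4 to Cxcr2 (logarithmic vertical axis) in each library by group, with group means and SD as bars. Cxcr4 overlaps between each MSC group and its control, Cxcr2 is highest in the 2 Blood libraries, and the ratio is 1.48 to 4.76 in heart and 0.258 to 0.392 in blood libraries.

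The nearest profiles to Cxcr4 were those of Nfkbiz, Gm38257, Il1rn, Junb and Nfe2l2 (root mean square difference 0.22 to 0.27 on the log2 scale, median over all genes 1.10). Nfkbiz encodes an inducible regulator of NF-κB, Il1rn the interleukin-1 receptor antagonist, Junb an AP-1 subunit and Nfe2l2 the antioxidant factor NRF2. In MI, MI + MSC, Blood and Blood + MSC, Nfkbiz had means of 575, 1678, 784 and 572 normalized counts, and Il1rn 617, 1514, 634 and 496.

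Ackr3 was low everywhere. Its normalized counts were 0, 18.3 and 24.2 for MI, 6.76, 25.3 and 12.9 for MI + MSC, 0 and 0.650 for Blood, and 3.68 and 6.23 for Blood + MSC. With at most 47 reads in a library, its mean over all libraries was 9.79, just outside the minimum of 10, so it was not tested by the main fit. The 0 reads of MI 13 allow up to 25.2 normalized counts, about the highest value of the gene in any library. Without MI 13, limma called Ackr3 higher in MI than in Blood (adjusted p = 0.00576), as did edgeR (0.00579) and DESeq2 (0.0144) on reads of all libraries. With all libraries, limma did not call Ackr3 without a minimum (adjusted p = 0.107) or when scaled by library totals (0.101). Without MI 13 the gene passed the minimum through the heart libraries, so nothing is read from that call. No fold is given because Blood had 0 reads and 1 read. The MSC and control ranges of heart overlapped.

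Cxcr5 overlapped between all groups. Its normalized counts were 25.2, 11.5 and 4.12 for MI, from 3, 12 and 8 reads, and 18.3, 6.89 and 14.2 for MI + MSC. They were 7.07 and 33.1 for Blood and 11.8 and 32.1 for Blood + MSC. The highest were Blood 22 and Blood + MSC 24.

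The limma log2 differences were -0.45 (SE 0.77, adjusted p = 0.680) in MI against Blood, -0.60 (SE 0.77, adjusted p = 0.628) in MI + MSC against Blood + MSC, and 0.13 (SE 0.69, adjusted p = 0.958) in MI + MSC against MI. In Blood + MSC against Blood it was 0.28 (SE 0.84, interval -1.57 to 2.14, adjusted p = 0.960). Each of these 4 changed sign when some library was left out, and edgeR and voom on reads called Cxcr5 lower in MI than in Blood (adjusted p = 0.0351 and 0.0400).

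The sum of 10 B cell markers ranged from 109.6 to 210.2 normalized counts over the 6 heart libraries. It was 254 and 805 for the Blood libraries and 282 and 942 for those of Blood + MSC. Within each blood group, the library with more B cell marker counts was the one with more Cxcr5. Per 1000 B cell marker counts, Cxcr5 was at 27.8 and 41.2 for Blood and at 42.0 and 34.1 for Blood + MSC, a narrower range than that of Cxcr5 itself. The Blood 21 value rests on 1 read of Cxcr5, and 1 of the 10 markers had more than 3 reads there. In heart libraries, with 3 to 27 reads of the gene, this ratio was 35.3 to 176. The 5 nearest profiles of Cxcr5 were those of H2-Ob, Naxe, Vrk2, Bank1 and Ptpro, at 0.40 to 0.47 on the log2 scale against a median of 1.04. Of these, H2-Ob and Bank1 are expressed in B cells. The part of B cells in the Cxcr5 values was not tested.

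**Figure D4:**
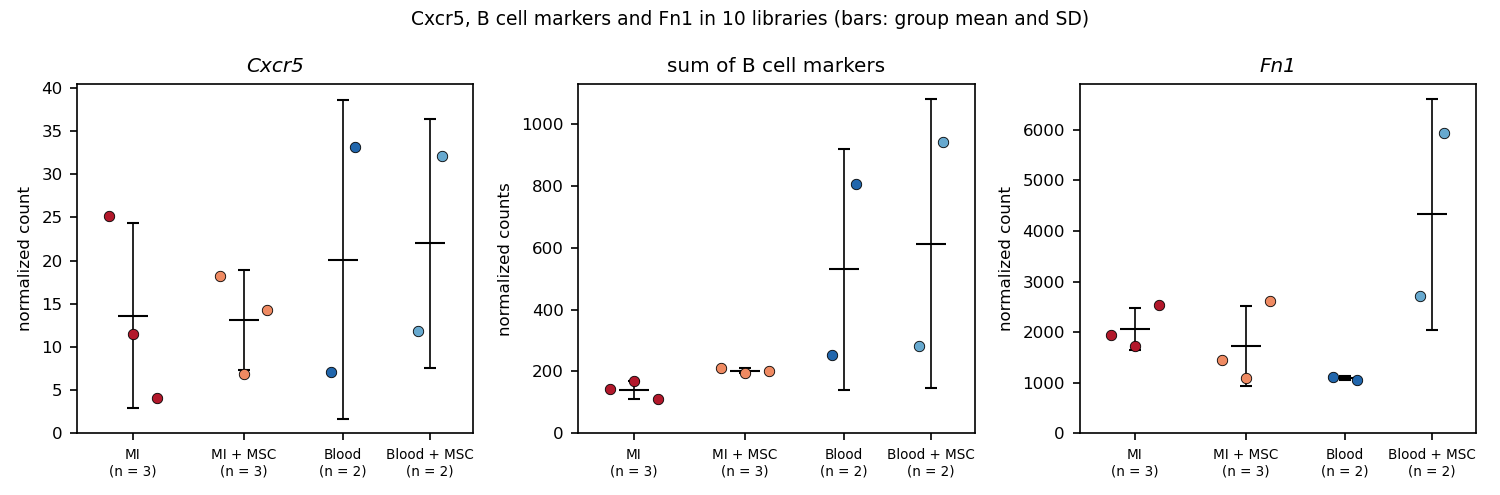
Normalized counts of Cxcr5, of 10 summed B cell markers and of Fn1 (vertical axes, linear from 0) in each library by group, with group means and SD as bars. Blood 22 and Blood + MSC 24 are the highest in Cxcr5 (33.1 and 32.1) and in B cell markers (805 and 942), and Fn1 is highest in Blood + MSC 24 (5942).

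Counted over the 4 comparisons, the calls fell on 1 of 4 tested members (Cxcl12) in MI against Blood, where 34.7% of all genes were called, and 2 of 4 (Cxcl12 higher, Cxcl13 lower) in MI + MSC against Blood + MSC, where 14.1% were. Nothing is read from these calls. MI against Blood chose Cxcl12, and in MI + MSC against Blood + MSC both calls rest on groups that let the genes pass the minimum. In MI + MSC against MI and in Blood + MSC against Blood, 0 of 4 members were called and 0% of all genes. In those 2 contrasts 925 and 848 genes had an unadjusted p under 0.05 with limma, and edgeR called 9 and 74 genes and DESeq2 80 and 165. The 4 comparisons share libraries in pairs.

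The rest of the pathway was read from 6 lists. Of all tested genes, 34.7% were called in MI against Blood and 14.1% in MI + MSC against Blood + MSC. Of 8 other homeostatic chemokines 2 passed the minimum, and Cxcl16, the ligand of CXCR6, was the 1 called. It was higher in heart, at 92.4 to 238 normalized counts over the MI libraries and 241 to 555 over those of MI + MSC against 20.1 to 35.3 over all blood libraries. The log2 difference was 2.60 in MI against Blood (adjusted p = 0.00258) and 3.62 in MI + MSC against Blood + MSC (limma adjusted p = 0.00103). Of 7 receptors for those ligands 3 were tested and 1, the fractalkine receptor Cx3cr1, was called, higher by 4.76 and 2.88 in the same contrasts (adjusted p = 0.000624 and 0.0176 by limma). The latter was lost with TMM, without MI + MSC 18 and without Blood + MSC 23 (adjusted p = 0.0627, 0.0733 and 0.238).

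Among 10 tested genes that hold, cleave or cooperate with CXCL12, 5 were higher and 2 lower in MI than in Blood. In that contrast 34.7% of all tested genes were called. The proteoglycans Hspg2 (4.60, adjusted p = 1.6e-05) and Sdc4 (2.11, adjusted p = 0.00192), which bind chemokines, were higher by limma, as were Vcam1 (3.95), Mmp2 (2.24) and Mmp14 (2.45), of which the last 2 encode matrix proteases. Itga4, a chain of the VCAM-1 receptor, and Hmgb1, which forms a complex with CXCL12, were lower (-1.94 and -1.29). The Itga4 call was lost without Blood 22 (adjusted p = 0.105), with TMM (0.0644) and with only these 2 groups fitted (0.0690). With MSC, where 14.1% of all tested genes were called, 3 were higher in heart than in blood (Hspg2, Sdc4 and Mmp14) and 0 lower. The list's median was 1.11 in the former contrast and 1.20 in the latter, against 0.15 and 0.09 over all tested genes.

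Of 18 tested genes for chemokine receptor signalling and trafficking, 3 were higher and 12 lower in MI than in Blood (list median -1.37). The share over all tested genes was 34.7%. Rgs1, a regulator of G protein signalling, was higher, with 311 to 851 normalized counts over the MI libraries and 1167 to 1795 over those of MI + MSC against 26.1 to 142 over all blood libraries. Its log2 difference was 3.05 in MI against Blood (limma adjusted p = 0.00384) and 4.47 in MI + MSC against Blood + MSC (0.00122). Rac2, a GTPase of leukocyte migration, was lower by 2.91 (-2.91, adjusted p = 0.00131) and Grk6, a receptor kinase, by 1.67 (-1.67, adjusted p = 0.00441) in MI. With MSC, where 14.1% of all tested genes were called, 1 was higher and 7 lower in heart than in blood (list median -1.01). Of these, Rac2 lost its call when MI + MSC 15 or 18 or Blood + MSC 23 or 24 was left out (adjusted p from 0.0504 to 0.206), and Grk6 without Blood + MSC 23 (0.0567).

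Among 12 genes of neutrophil ageing and release, 2 were higher and 7 lower in MI than in Blood (list median -1.36). The share over all tested genes was 34.7%. Icam1, an adhesion molecule, was higher by 1.90 (adjusted p = 0.0202), and lost that call in 5 of 20 alternatives, including without MI 19 (0.0508), MI 20 (0.0569) or Blood 22 (0.120). In MI + MSC against Blood + MSC, Icam1 was again higher (3.28, limma adjusted p = 0.00311). The neutrophil marker sum moved with these genes, being lower in every heart than in every blood library, and its part was not tested.

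Of 7 genes of the hypoxia response, which acts on Cxcl12 and Cxcr4, 3 were higher in MI than in Blood and 0 lower. The list median was 0.46. That count is near the 34.7% called over all tested genes, so nothing particular to this list is read from it. The oxygen sensor Egln1 was higher by 2.10 (limma adjusted p = 0.00209) and Vegfa by 1.77 (adjusted p = 0.0026, and 0.0747 with TMM). Epas1 was higher by 6.97, given without a test. It had 0 to 8.67 normalized counts over the blood libraries, so it passed the minimum mean through the heart libraries. Blood had 0 and 7 reads of Epas1, so this difference depends on the pseudocount. In the MSC groups, Epas1 (4.26, again without a test) and Vegfa (2.78) were higher in heart. In both MSC contrasts 0 genes of the 6 lists were called.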

How the data were processed

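RNA of cells enriched with Ly6G beads was measured in 10 libraries, grouped by their labels. The authors trimmed reads, removed duplicates, aligned to GRCm39 with STAR, counted them by gene and strand (featureCounts), dropped mitochondrial reads and applied DESeq2 normalization. Both deposited tables hold the same signal values, reads divided by the DESeq2 size factor, in all 281850 cells. In each library 100% of values were whole multiples of 1 read (tolerance 0.01 reads), and reads were recovered by that step. Coordinates are from GENCODE for GRCm39, which held 27906 of 28185 identifiers. limma (3.58.1, R 4.3.3) with an intensity trend was fitted to log2(normalized count + 2) for 11549 genes whose mean reached 10, with 1 mean per group. A call needed a log2 fold change of 0.5 or more in either direction at a Benjamini-Hochberg adjusted p under 0.05. Such fold changes understate the change of low genes. voom, edgeR (4.0.16) and DESeq2 (1.42.0) on recovered reads, other pseudocounts, filters and scalings, and leaving out each library were alternatives, and edgeR, DESeq2 and limma were tested on simulated reads. Floors are 3 reads and cover counting error only. The members and gene lists were chosen with earlier results of these data known. Besides the members, the genes named are the 5 nearest profiles of each, listed genes that were called, Ly6g, and up to 4 uncalled genes a list. The serous cavity macrophage list is an exception, with more uncalled genes named than that. The planned tests of Cxcl12 and Cxcl13 between MI + MSC and Blood + MSC were run. Their differences are given as descriptions because Cxcl12 passed the minimum through the heart libraries and Cxcl13 through Blood + MSC. The result of 1 gene of neutrophil ageing and release is not reported here.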

Additional observations from a re-analysis of the deposited data

Results flagged for a closer look

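The Cxcl12 values of the MSC groups lay on opposite sides of their controls in the 2 tissues. Every MI + MSC library lay below every MI library, while both Blood + MSC libraries lay above both Blood libraries. Among all tested genes, 9.6% had the heart pattern and 21% the blood pattern, and the share with both was not counted. The MSC change in heart minus that in blood was -3.14 on the log2(normalized count + 2) scale. It was not called by limma (adjusted p = 0.630), and nothing is read from that fit, because the heart change chose the gene. The blood values rest on 0 and 4 reads in Blood and 12 and 38 reads in Blood + MSC, and the 3-read floor of Blood 21 (21.2 normalized counts) lies above all of them, so a change in blood was not detectable at this depth.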

How the results depend on the processing

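No paired analysis was possible because the labels do not say which libraries share a mouse. Blood was drawn before the heart was harvested, so heart and blood libraries may come from the same mice. The fits treat all libraries as independent. Cxcl12 in MI + MSC against MI stayed within 1 residual SD of its main value in all 20 alternatives and lay between -2.26 and -1.68 with 1 library left out. Cxcl13 in Blood + MSC against Blood was 5.05 and 3.14 with pseudocounts of 1 and 5, 6.18 with edgeR and 5.74 with DESeq2, and 4.04 to 4.45 with 1 library left out. The pseudocount sets such values for a gene near 0 reads. It could not be fitted with a minimum of 20 or without either Blood + MSC library. The number of members called in MI against Blood was 2 with voom, 3 with edgeR and 2 with DESeq2, and 1 to 2 with 1 library left out (2 without MI 13, Cxcl12 and Ackr3). In MI + MSC against Blood + MSC it was 1 with a minimum of 20, which drops Cxcl13, and 1 to 3 with 1 library left out. In MI + MSC against MI it was 1 with voom and 1 with DESeq2 (62 and 80 of all genes), and 0 without any 1 library. In Blood + MSC against Blood it was 1 with edgeR, 1 with DESeq2 (74 and 165 of all genes), and 0 to 2 with 1 library left out (2 without Blood 22, where 1504 of all 11744 genes were called and Blood is the shallow library 21 alone). The members called in these last 2 contrasts include the ligands chosen from them, so nothing is read from their calls. Cxcr4 in Blood + MSC against Blood turned to 0.014 with TMM. Cxcr5 turned in MI against Blood to 0.10 without MI 20 and 0.53 without Blood 22 (lowest -1.42 with 1 library left out), in MI + MSC against Blood + MSC to 0.049 without Blood + MSC 24 (lowest -1.26 with 1 left out), and in MI + MSC against MI to -0.42 without MI 20 and -0.13 without MI + MSC 15 (highest 0.65 with 1 left out). In Blood + MSC against Blood it turned to -0.62 with voom, -0.15 with edgeR, -0.10 with DESeq2, -0.69 without Blood 21 and -0.37 without Blood + MSC 24 (highest 1.26 with 1 left out). Beyond what the construction of a setting shows, the cause was not tested. The median log2 fold change of all genes was 0.15, 0.09, -0.01 and 0.11 in the 4 comparisons, in the order above, 0.68, 0.20, -0.15 and 0.38 scaled by library totals, and -0.12, -0.54, 0.27 and 0.72 with TMM. The shallow MI 13 and Blood 21 limit what can be said of Ackr3, Cxcl13 and Cxcr5.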
